A study of Mus musculus with 12 samples.

Results

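The unfolded protein response is followed here through 10 genes, namely Xbp1, Atf6, Ern1, Eif2ak3, Dnajc3, Creld2, Manf, Sdf2l1, Mbtps1 and Mbtps2. They were taken by gene symbol, and every probe set that the platform annotation assigns to one of these symbols was used. Of the 10 genes, 9 had a probe set, and together they had 22 of the 22626 tested probe sets. Dnajc3 had 5 probe sets, Xbp1 had 4, Ern1, Eif2ak3 and Mbtps1 had 3 each, and Atf6, Creld2, Manf and Sdf2l1 had 1 each. Mbtps2 was not analysed here, because no probe set carried its symbol in the annotation used.

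RNA from the livers of 12 male mice aged 6 weeks was measured on 1-colour Affymetrix arrays, with 1 array per mouse and 3 biological replicates per group. The mice carried human alpha1-antitrypsin under inducible control in hepatocytes, either as the mutant Z form or as the wild-type M form, and the mice labelled non-expressing drank water with 40 ug/mL doxycycline. Z on mice expressed the Z form without doxycycline, Z off mice were of the same line and received doxycycline from conception, M on mice expressed the M form without doxycycline, and M off mice received doxycycline from conception. All 4 groups carried a transgene, and no group without one was among the arrays. Transgene expression and absence of doxycycline cannot be told apart within a line, and the Z form cannot be told apart from the line that carries it. The labels give neither the driver promoter nor the litters, and no probe set was named for the human gene, so its level was not measured.

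Proteins that fail to fold in the endoplasmic reticulum are sensed by ATF6, IRE1 (the product of Ern1) and PERK (the product of Eif2ak3), membrane proteins that are held back by the chaperone BiP until unfolded protein draws it away. ATF6 travels to the Golgi, where the site-1 protease (Mbtps1) and the site-2 protease (Mbtps2) release its transcription factor part. IRE1 splices the Xbp1 mRNA into the form that encodes an active transcription factor, and PERK phosphorylates the translation factor eIF2alpha. Dnajc3, Creld2, Manf and Sdf2l1 are among the genes that the freed factors switch on. The Z form of alpha1-antitrypsin polymerises in the endoplasmic reticulum of hepatocytes. These arrays measured mRNA level. They did not measure splicing of Xbp1, cleavage of ATF6 or phosphorylation of PERK.

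The deposited signals are linear intensities, scaled so that the trimmed mean was 150.1 on every array, and 28.4% of all values lay below 16, where the log2 scale is unsteady. Hepatocyte markers exceeded 100 on all arrays for 8 of 8 genes. Some features of the arrays moved with the groups. The 3′ 18S control probe set read 914 to 1492 in Z on arrays and 93.9 to 373 in Z off arrays, against 227 to 768 in M on and 568 to 710 in M off arrays. The 5′ and middle 18S probe sets also read higher in every Z on than in every Z off array. On the middle set Z on (185 to 459) overlapped M on (51.1 to 330) and M off (157 to 257). Summed erythroid markers (5 of 8 with a probe set) were 203 to 364 in Z on and 1202 to 1573 in Z off livers, against 333 to 373 in M on and 350 to 402 in M off livers, and most of that sum was Alas2. The alpha-globin gene Hba-a1 was at most 37.6 on all arrays, read from a probe set that carries its symbol alone. Probe sets with several symbols were not used in the lists, and the beta-globin gene Hbb-b1 had none of its own. Globin RNA was therefore not judged. Summed stellate cell markers (9 of 10) were 1484 to 1958 in Z on and 2335 to 2677 in Z off livers, and 1582 to 2116 in M on and 2389 to 2602 in M off livers. Summed skeletal muscle markers (8 of 8, none above 100 on all arrays, Actn3 below 16 on all) were 67.3 to 105.6 in Z on and 107.9 to 172.1 in Z off livers, against 80.8 to 115 in M on and 103.7 to 574.4 in M off livers. Summed sinusoidal endothelial markers (9 of 9) were 1193 to 1479 in Z on and 1139 to 1411 in Z off livers, against 910.1 to 1023 in M on and 1066 to 1250 in M off livers. All 4 groups lay apart on the first principal component. Z off arrays stood at one end, at 21.5 to 27.8, and M on arrays at the other, at -21.6 to -16.3. Z on arrays were at -5.90 to 12.4 and M off arrays at -12.7 to -6.61. The ratio of 3′ to 5′ beta-actin signal was 2.44 to 5.16 in Z on and 2.18 to 2.53 in Z off arrays, against 3.09 to 4.38 in M on and 2.72 to 3.89 in M off arrays. The same ratio for Gapdh was 1.23 to 1.92 in Z on and 1.09 to 1.49 in Z off arrays, against 1.46 to 1.60 in M on and 1.48 to 1.54 in M off arrays. Both ratios overlapped between Z on and Z off. The part of the array features above in the member genes was not tested. In whole liver, fewer cells of a type and less RNA per cell cannot be told apart.

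The promoters of Dnajc3 and Creld2 are shown because, of the 8 member genes with an entry in the RefSeq promoter table (assembly GRCm38.p6), they are the ones that hold a full ER stress response element, the sequence at which ATF6 and XBP1 act. The element searched was CCAAT, any 9 bases, then CCACG, on both strands of the window from 250 bases before to 50 bases after the gene start. It stood in 39 of 32851 promoters (0.119%) and in 2 of the 8 member promoters. Capitals mark the element. In Dnajc3 (chr14:118937682-118937981, plus strand) it lay 105 to 87 bases before the start, on the strand of the gene. In Creld2 (chr15:88819396-88819695, plus strand) it lay 126 to 108 bases before the start on the opposite strand, so the capitals there read as its reverse complement.
Dnajc3: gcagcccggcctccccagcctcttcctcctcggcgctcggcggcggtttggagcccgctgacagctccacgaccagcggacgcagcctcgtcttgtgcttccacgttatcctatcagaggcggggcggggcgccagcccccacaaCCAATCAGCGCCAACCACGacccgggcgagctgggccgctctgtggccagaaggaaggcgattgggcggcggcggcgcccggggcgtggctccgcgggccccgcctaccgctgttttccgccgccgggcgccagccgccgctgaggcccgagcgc
Creld2: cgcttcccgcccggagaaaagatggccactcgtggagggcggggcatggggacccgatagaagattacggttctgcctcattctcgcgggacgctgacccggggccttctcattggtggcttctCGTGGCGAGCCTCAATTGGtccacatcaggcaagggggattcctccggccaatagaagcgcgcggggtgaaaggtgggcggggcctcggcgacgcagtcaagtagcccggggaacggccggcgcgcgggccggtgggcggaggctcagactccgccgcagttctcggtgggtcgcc
The shorter core CCACG alone is common, in 10765 promoters (32.8%) and 5 of 8 member promoters (Mbtps1, Ern1, Dnajc3, Creld2 and Sdf2l1), and it lies within the full element. Another form, ERSE-II (ATTGG, any 1 base, then CCACG), stood in 12 promoters (0.0365%), and the ATF6 and XBP1 site TGACGTGG in 222 (0.676%), with 0 member promoters in each. Atf6 and Manf had no entry.

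Among the effectors, Creld2 and Manf had their lowest mean signals in Z on livers and their highest in Z off livers. Creld2 encodes a disulfide isomerase-like protein of the endoplasmic reticulum. Its signal was 237.4, 244.0 and 311.0 in Z on livers and 465.4, 793.7 and 530.1 in Z off livers, against 299.2, 531.7 and 635.6 in M on livers and 323.2, 363.7 and 327.3 in M off livers. Every Z on array lay below every Z off array and below every M off array, while M on spanned the M off range. Means were 264 ± 40.7 in Z on and 596 ± 174 in Z off livers, and 489 ± 172 in M on and 338 ± 22.3 in M off livers (SD, n = 3 each). In limma's fit over all 12 arrays, Z on minus Z off was -1.15 on the log2 scale (SE 0.30, 95% interval -1.82 to -0.47), a level 0.451 times that of Z off, with an unadjusted p of 0.0037 and an adjusted p of 0.616. It did not pass the threshold of 0.05 after adjustment over all 22626 probe sets. M on minus M off was 0.46 (95% interval -0.21 to 1.14, adjusted p = 1), and the difference between the Z and M responses was -1.61 (SE 0.43, 95% interval -2.57 to -0.65, unadjusted p = 0.0039, adjusted p = 0.759 in limma).

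Manf, a protein of the endoplasmic reticulum that binds BiP and can be secreted, had its highest mean in Z off livers and overlapping values in the other 3 groups. Its signal was 1028.2, 1489.8 and 1634.0 in Z on livers and 1635.9, 2636.4 and 2617.9 in Z off livers, against 1539.0, 1415.0 and 1356.9 in M on livers and 1306.9, 1575.7 and 1467.0 in M off livers. Z on and Z off did not overlap, but the highest Z on array and the lowest Z off array were nearly equal. Means were 1384 ± 316 in Z on and 2297 ± 572 in Z off livers, against 1437 ± 93.0 in M on and 1450 ± 135 in M off livers (SD, n = 3 each). The Z on, M on and M off levels of Manf overlapped, and Z off stood above M off, its neighbour in the order of means. Z on minus Z off was -0.72 (SE 0.25, 95% interval -1.27 to -0.18, limma adjusted p = 0.703) and M on minus M off was -0.01 (95% interval -0.56 to 0.54).

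Sdf2l1, which works with BiP and its co-chaperones in the endoplasmic reticulum, spread widely within groups. Its signal was 143.7, 196.9 and 546.5 in Z on livers and 521.1, 320.4 and 255.1 in Z off livers, against 237.6, 374.9 and 541.1 in M on livers and 443.1, 319.9 and 302.1 in M off livers. The Z on group held both the lowest and the highest value of the 12, and all 4 groups overlapped. Z on minus Z off was -0.49 (95% interval -1.62 to 0.64, limma adjusted p = 0.909). Without Z on replicate 3 it was -1.05 (unadjusted p = 0.0324, adjusted p = 0.663), and without Z on replicate 1 it was -0.09. The size of the difference rests on those arrays.

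Dnajc3 encodes p58IPK, a co-chaperone of BiP that also restrains PERK. Its brightest probe set gave 564.3, 473.9 and 632.2 in Z on livers and 551.0, 543.4 and 593.4 in Z off livers, against 317.0, 483.9 and 696.6 in M on livers and 540.8, 632.1 and 463.8 in M off livers. The groups overlapped, and Z on minus Z off was -0.02 (95% interval -0.64 to 0.59, limma adjusted p = 0.992). The other probe sets differed from it in order. The second gave 339.1, 450.8 and 597.3 in Z on livers and 598.1, 592.7 and 520.6 in Z off livers, against 330.2, 288.0 and 469.7 in M on livers and 384.6, 401.8 and 304.4 in M off livers. On that probe set Z off lay above M off on all arrays, by 0.66 (unadjusted p = 0.0299, adjusted p = 0.603). The third gave 412.8, 433.5 and 505.6 in Z on livers, against 303.8, 262.3 and 411.4 in M on livers, with no overlap but nearly equal values at the edge. The fifth and dimmest gave 44.4, 38.8 and 61.1 in Z on livers and 21.4, 38.7 and 37.9 in Z off livers, also apart by a narrow margin. Over both states, the second, the fourth and the third probe sets were 0.50, 0.48 and 0.41 higher in the Z line than in the M line (unadjusted p = 0.0215, 0.0284 and 0.0327 in limma), none past the adjusted threshold. These 3 derive from the same source sequence, so they are not independent readings. The brightest probe set, from another source sequence, ranged from -0.01 to 0.28 in that contrast over the settings tried. Z on replicate 3 was the highest Z on array on all 5 Dnajc3 probe sets. The same array was the highest Z on array for 8 of the 9 genes by brightest probe set, all but Ern1, while in the other groups no array was highest for more than 5 of the 9.

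**Figure D1:**
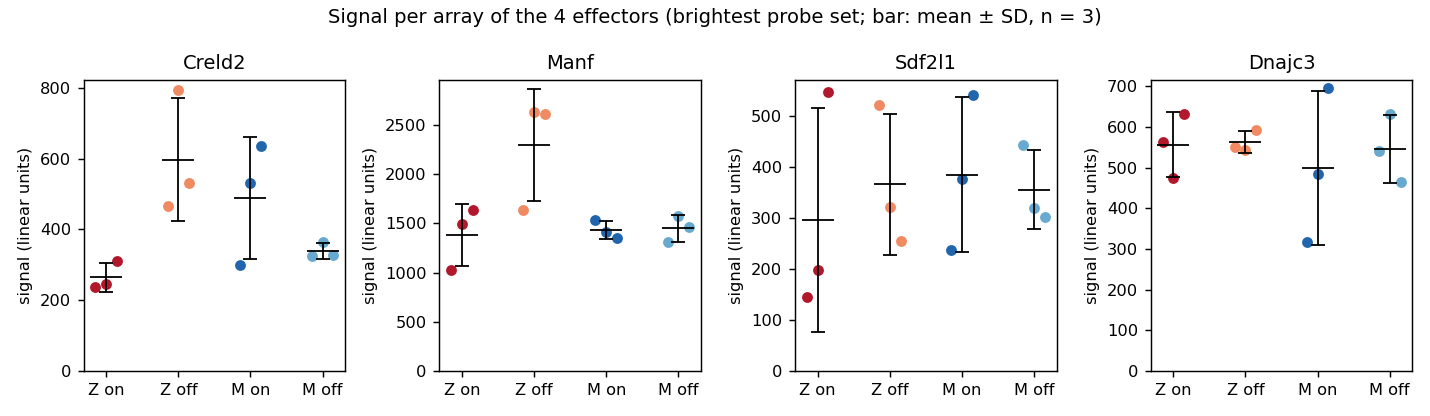
Signal per array (linear units, vertical axis from 0) of Creld2, Manf, Sdf2l1 and Dnajc3 in Z on, Z off, M on and M off livers, each by its brightest probe set. Points are arrays and bars the mean ± SD (n = 3); for Creld2 the Z on points, up to 311.0, all lie below the Z off points, from 465.4.

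Of the sensors, Atf6 had its lowest values in Z off livers and Eif2ak3 its highest mean there. Atf6 gave 228.1, 213.1 and 232.3 in Z on livers and 148.3, 152.3 and 181.7 in Z off livers, against 219.2, 224.6 and 239.8 in M on livers and 253.7, 197.7 and 192.6 in M off livers. Every Z off array lay below every array of the other 3 groups, which overlapped one another. Means were 224.5 ± 10.1 in Z on and 161 ± 18.2 in Z off livers, and 228 ± 10.7 in M on and 215 ± 33.9 in M off livers (SD, n = 3 each). Z on minus Z off was 0.49 (SE 0.17, 95% interval 0.11 to 0.87), a level 1.40 times that of Z off, with an unadjusted p of 0.0176 and an adjusted p of 0.706 in limma. M on minus M off was 0.10 (95% interval -0.29 to 0.48).

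Eif2ak3, the PERK kinase, gave 100.4, 105.1 and 116.5 in Z on livers and 150.1, 187.1 and 139.8 in Z off livers, against 65.8, 138.3 and 74.7 in M on livers and 115.0, 99.7 and 123.3 in M off livers. Z off lay above the other groups on every array, and Z on, M on and M off overlapped. Means were 107 ± 8.28 in Z on and 159 ± 24.9 in Z off livers, against 92.9 ± 39.5 in M on and 112.7 ± 11.97 in M off livers (SD, n = 3 each). Z on minus Z off was -0.56 (SE 0.27, 95% interval -1.17 to 0.05, limma adjusted p = 0.799) and M on minus M off was -0.35 (95% interval -0.96 to 0.26). The other 2 Eif2ak3 probe sets read below 16 on all 12 arrays and carry no readable order.

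Ern1, the IRE1 kinase and endonuclease, had dim probe sets. Its brightest probe set gave 21.8, 44.6 and 9.2 in Z on livers and 28.3, 37.2 and 18.2 in Z off livers, against 14.3, 38.6 and 12.3 in M on livers and 30.4, 12.4 and 23.0 in M off livers. All groups overlapped, and the interval of Z on minus Z off was wide, from -1.79 to 1.05 around -0.37. The second probe set gave 26.4, 43.6 and 27.8 in Z on livers and 13, 20.1 and 24.5 in Z off livers, against 21.3, 14.7 and 5.4 in M on livers and 13.6, 7.0 and 27.7 in M off livers. There Z on lay above Z off and above M on on every array, opposite to the brightest probe set in sign against Z off (0.77), and Z on minus M on was 1.41 (unadjusted p = 0.0382, limma adjusted p = 0.710). The third probe set read below 16 on all arrays.

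Xbp1, the substrate of IRE1 and a factor of the response, had overlapping values in all 4 groups. Its brightest probe set gave 2050.2, 1886.2 and 2246.9 in Z on livers and 1756.7, 1895.1 and 2271.8 in Z off livers, against 1636.7, 2049.5 and 2285.0 in M on livers and 1699.3, 1790.3 and 2074.2 in M off livers. The groups overlapped, with Z on minus Z off at 0.07 (95% interval -0.36 to 0.49, limma adjusted p = 0.973) and M on minus M off at 0.09. The 3 other Xbp1 probe sets also overlapped between Z on and Z off. The second ranged over 1056.1 to 1382.1 in Z on and 812.2 to 1147.3 in Z off livers. The third ranged over 541.8 to 592.4 in Z on and 511.6 to 670.7 in Z off livers, and the fourth over 150.9 to 163.9 in Z on and 108.2 to 152.8 in Z off livers. The probe sets were not matched to the spliced or unspliced form.

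Mbtps1, the site-1 protease that cuts ATF6, gave 232.2, 244.7 and 258.0 in Z on livers and 254.9, 261.6 and 269.1 in Z off livers, against 207.0, 296.1 and 263.8 in M on livers and 249.2, 233.5 and 275.5 in M off livers. The groups overlapped, and Z on minus Z off was -0.10 (95% interval -0.49 to 0.29). Its other 2 probe sets were dim, with 6 and 7 of 12 values below 16.

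**Figure D2:**
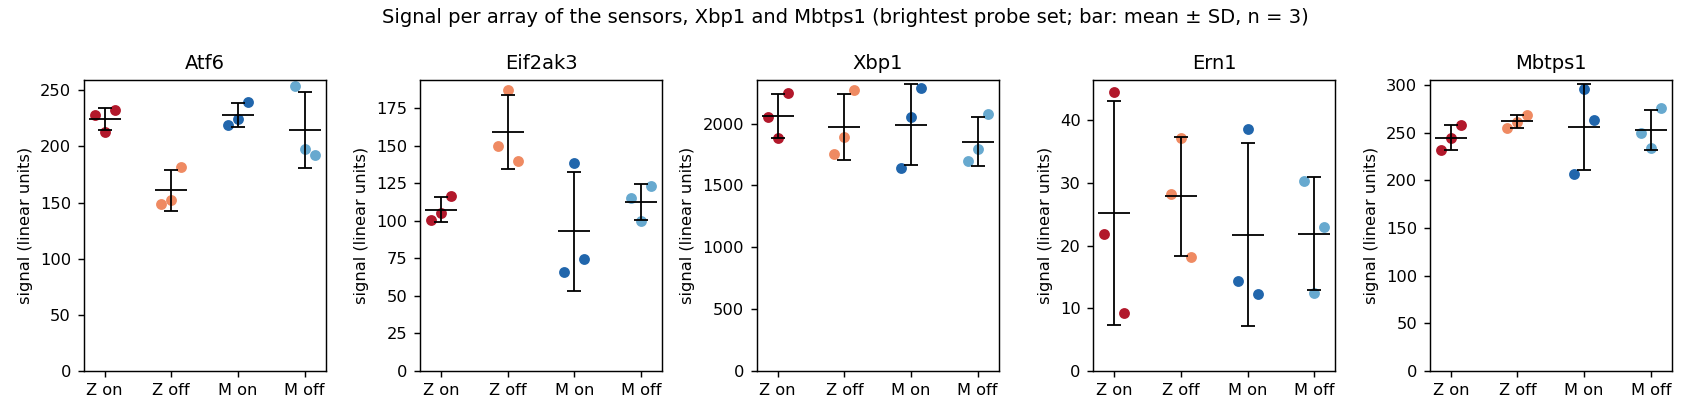
Signal per array (linear units, vertical axis from 0) of Atf6, Eif2ak3, Xbp1, Ern1 and Mbtps1 in Z on, Z off, M on and M off livers, each by its brightest probe set, with points for arrays and bars for the mean ± SD (n = 3). Atf6 is lowest in Z off (148.3 to 181.7) and Eif2ak3 highest there (139.8 to 187.1), while Xbp1 and Mbtps1 overlap between groups.

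No member probe set passed an adjusted p of 0.05 in any of the 7 contrasts of limma's fit, and few probe sets of the whole array did. In Z on against Z off, 3 of the 22626 probe sets were called (0.0133%). In M on against M off and in the difference between the Z and M responses it was 0 (0%), with unadjusted p under 0.05 for 5.18% of probe sets in each. In Z on against M on 2 were called (0.00884%) and in Z off against M off 16 (0.0707%). On against off over both lines called 2 (0.00884%) and the Z line against the M line over both states 20 (0.0884%). The smallest adjusted p of a member was 0.616 in Z on against Z off and 0.974 in M on against M off.

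At an unadjusted p under 0.05, 3 of 22 member probe sets stood out in Z on against Z off, namely Creld2, Manf and Atf6, where 6.29% of all probe sets did. In M on against M off it was 0 of 22. In the difference of responses it was 1, Creld2. In Z on against M on it was 2, Creld2 (-0.83, 95% interval -1.51 to -0.15, adjusted p = 0.619) and the second Ern1 probe set, against 6.85% of all. In Z off against M off it was 5, against 7.73% of all. They were Creld2 (0.78, adjusted p = 0.600), Manf (0.63, adjusted p = 0.600), Atf6 (-0.41, adjusted p = 0.620), the second Dnajc3 probe set and the third and dim Ern1 probe set (1.62, adjusted p = 0.573). On against off over both lines gave 2, Atf6 (0.29) and Eif2ak3 (-0.46), against 5.84% of all, and the Z line against the M line gave 4, 3 of Dnajc3 (from the same source sequence) and the third of Ern1, against 9.09% of all. Several of these share the Z off arrays, so that the Z on to Z off and the Z off to M off values are not independent of each other.

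By ranges alone, Z on and Z off did not overlap for 6 of 22 member probe sets, against 11.8% of all probe sets. Creld2, Manf and Eif2ak3 were lower in Z on, and Atf6, the second Ern1 and the fifth Dnajc3 probe sets were higher in Z on. M on and M off overlapped for all 22, against a background of 10.5% that did not. Z on and M on were apart for 3, the third Dnajc3 and the second and the third Ern1 probe sets, all higher in Z on, against 12.1% of all. Z off and M off were apart for 5, with Creld2, Manf, Eif2ak3 and the second Dnajc3 probe set higher and Atf6 lower in Z off, against 15.1% of all. By brightest probe set, 2 of 9 genes were higher and 7 lower in Z on than in Z off, with a median of -0.37, where the median over 12393 genes was -0.03. That median is the value of the dim brightest Ern1 probe set, and it depends on single arrays. It was -0.09 without Z on replicate 1, -0.14 without Z on replicate 3, -0.20 without Z off replicate 1, -0.13 without Z off replicate 2 and -0.61 without Z off replicate 3, and -0.16 with 16 added to every signal. The count of lower genes was 6 to 8 of 9 in these fits. In M on against M off the split was 5 and 4, with a median of 0.00 for members and for all genes. In Z off against M off 7 were higher and 2 lower (median 0.09, all genes 0.02), and in Z on against M on 4 were higher and 5 lower (median -0.02, all genes -0.01). With an array left out, these 3 medians ranged from -0.01 to 0.12 in M on against M off, from 0.06 to 0.22 in Z off against M off (0.03, with 5 higher and 4 lower, after centring each array on its median) and from -0.07 to 0.07 in Z on against M on.

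**Figure D3:**
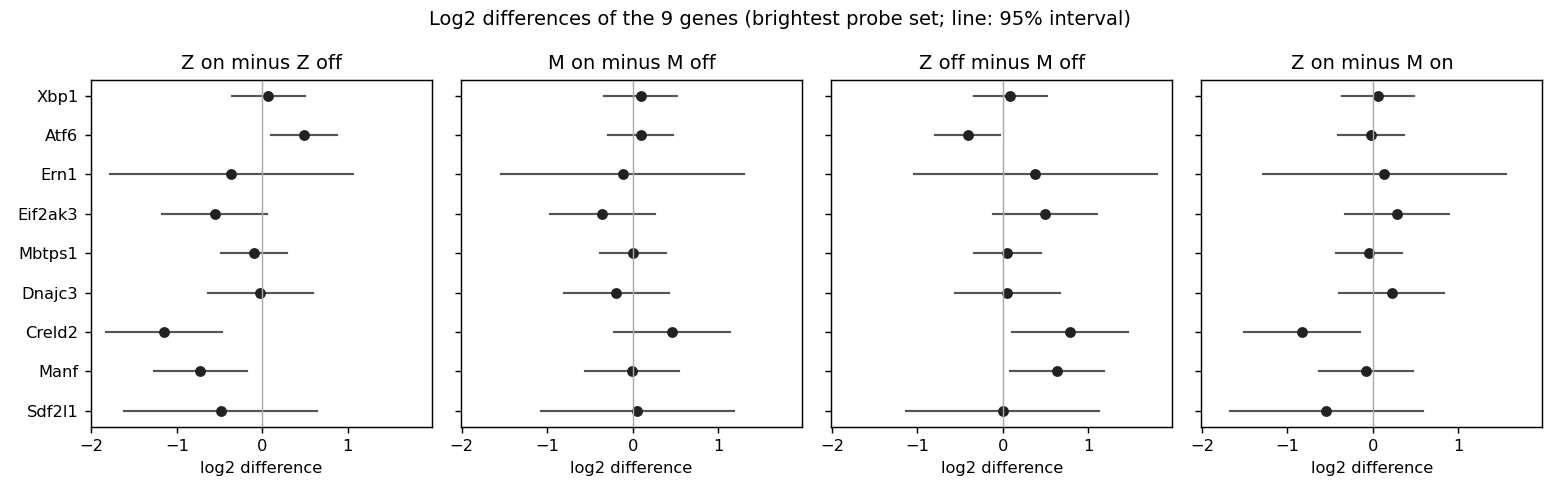
Log2 differences (horizontal axis) of the 9 genes by brightest probe set in 4 contrasts, namely Z on minus Z off, then M on minus M off, Z off minus M off and Z on minus M on, with dots for the limma estimate and lines for its 95% interval. In Z on minus Z off the intervals of Creld2 (-1.15), Manf (-0.72) and Atf6 (0.49) leave out 0; in M on minus M off none does.

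**Figure D4:**
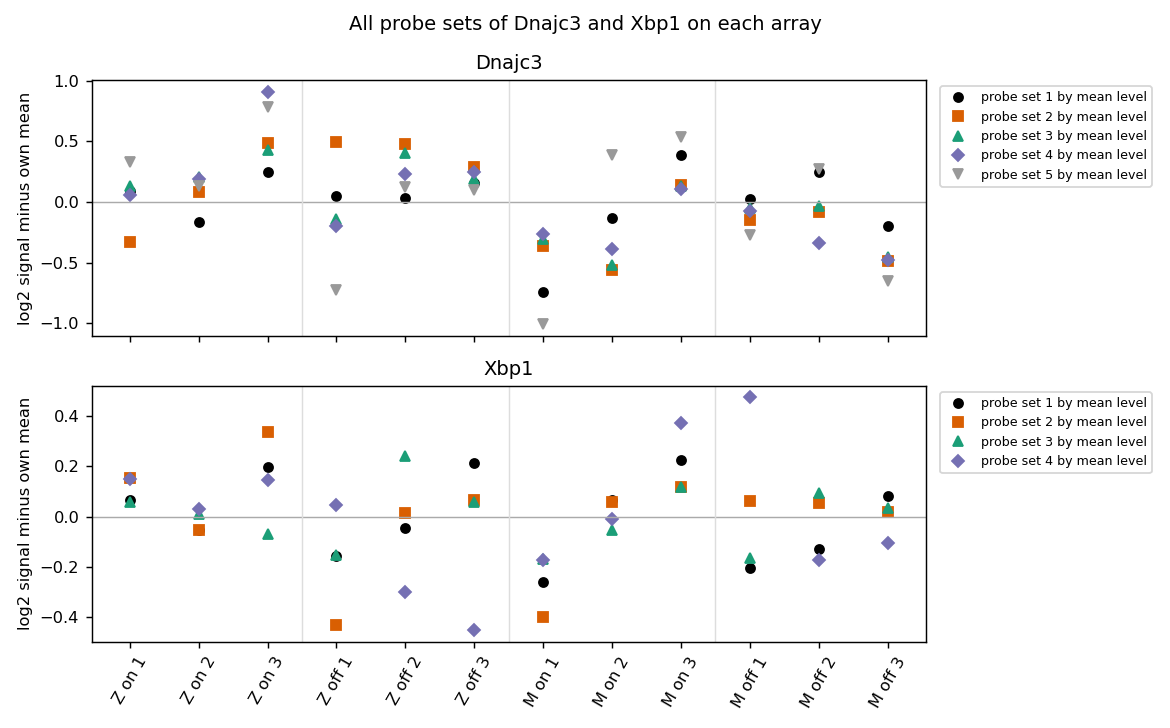
Log2 signal of each probe set minus its own mean over the 12 arrays (vertical axis) for the 5 Dnajc3 and 4 Xbp1 probe sets, array by array in Z on, Z off, M on and M off livers, with 1 marker shape per probe set in order of mean level. On Z on replicate 3 all 5 Dnajc3 markers lie above 0, while the Xbp1 markers lie on both sides.

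Around these genes, the lists of the wider response held 0 called members in every contrast. Of 22 measured ER chaperones and folding enzymes (23 listed), 6 were higher and 16 lower in Z on than in Z off (median -0.17), and 9 were higher and 13 lower in M on than in M off (median -0.05). In Z off against M off 14 were higher and 8 lower (median 0.06), and in Z on against M on 8 were higher and 14 lower (median -0.02). Dnajb9, a BiP co-chaperone that represses IRE1, averaged 499 ± 129 in Z on and 782 ± 28.8 in Z off livers, against 375 ± 47.3 in M on and 460.0 ± 69.1 in M off livers (SD, n = 3 each). Its Z on minus Z off value was -0.68 and its Z off minus M off value 0.78 (limma adjusted p = 0.672 and 0.417). Hspa5, which encodes BiP, averaged 4384 in Z on and 5233 in Z off livers, against 4286 in M on and 4375 in M off livers, and Hsp90b1 (GRP94) averaged 1307 in Z on and 1294 in Z off livers, against 1551 in M on and 1397 in M off livers. Both overlapped between Z on and Z off. Canx had the smallest unadjusted p of the list in M on against M off, at -0.36 (limma adjusted p = 0.974). Its M on values (973 to 1188) all lay below its M off values (1302 to 1427), while Z on and Z off overlapped. The difference between the Z and M responses of Canx was 0.52 (limma adjusted p = 0.933).

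Of 21 measured genes of ER-associated degradation (23 listed), 7 were higher and 14 lower in Z on than in Z off (median -0.11), and 5 were higher and 16 lower in M on than in M off (median -0.11). In Z off against M off 12 were higher and 9 lower (median 0.03), and in Z on against M on 10 were higher and 11 lower (median -0.03). Syvn1, the HRD1 ubiquitin ligase, averaged 238 ± 35.8 in Z on and 442 ± 30.6 in Z off livers, against 258 ± 37.9 in M on and 300.4 ± 23.8 in M off livers (SD, n = 3 each). Z on and Z off did not overlap for Syvn1, at -0.90, with an unadjusted p of 0.00065 and a limma adjusted p of 0.443. Herpud1, a membrane protein of the same degradation machinery, went the other way in its means, at 2095 ± 760 in Z on and 1635 ± 522 in Z off livers, against 1472 ± 108 in M on and 2129 ± 386 in M off livers (SD, n = 3 each). Its Z on and Z off ranges overlapped, and Z on minus Z off was 0.35 (limma adjusted p = 0.890). Its M on values (1405 to 1597) all lay below its M off values (1796 to 2552), with a difference of -0.52 (limma unadjusted p = 0.116). Ube2g2 had the smallest unadjusted p of the list in Z on against M on, at 0.68 (limma adjusted p = 0.512). Its M on minus M off value was -0.53 (limma adjusted p = 0.892), with M on (98.8 to 141.7) and M off (164.8 to 183.9) also apart. Over all probe sets, M on and M off did not overlap for 10.5%, and Z on and Z off for 11.8%.

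PERK acts through eIF2alpha and the transcription factor ATF4. Of 22 measured genes of this integrated stress response, 10 were higher and 12 lower in Z on than in Z off (median -0.08), and 11 were higher and 11 lower in M on than in M off (median 0.00). In Z off against M off 11 were higher and 11 lower (median -0.01), and in Z on against M on 5 were higher and 17 lower (median -0.26). The transcription factor Atf5 averaged 574 in Z on and 1123 in Z off livers, against 906 in M on and 891 in M off livers (Z on minus Z off -0.98, limma adjusted p = 0.671). The hormone Fgf21, a dim probe set, averaged 23.9 in Z on and 71.3 in Z off livers, against 27.8 in M on and 45.5 in M off livers. Its difference was -1.86 for Z on against Z off (limma adjusted p = 0.706) and -0.82 for M on against M off. Atf4 averaged 558 in Z on and 687 in Z off livers, against 722 in M on and 526 in M off livers, and Ddit3 (CHOP) 85.9 in Z on and 102 in Z off livers, against 116 in M on and 64.4 in M off livers. M on and M off did not overlap for Ddit3 (92.4 to 146.8 and 47.3 to 85.1) or for Atf4 (646.5 to 860.8 and 494.5 to 548.9). Z on and Z off overlapped for both. M on minus M off was 0.86 for Ddit3 (limma adjusted p = 0.808) and 0.44 for Atf4 (limma adjusted p = 0.984). The difference between the Z and M responses was -1.12 for Ddit3 and -0.75 for Atf4 (limma adjusted p = 0.933 for each). Trib3, a pseudokinase induced by CHOP and ATF4, averaged 57.6 in Z on and 51.0 in Z off livers, against 68.8 in M on and 98.4 in M off livers, and Z off minus M off was -1.01 (limma adjusted p = 0.577). Vldlr had the smallest unadjusted p of the list in Z off against M off, at -1.14 (limma adjusted p = 0.434). It also had the smallest in Z on against M on, at -0.75 (limma adjusted p = 0.726). The eIF2alpha kinases, phosphatase subunits and their partners were 5 higher and 3 lower of 8 in Z on against Z off (median 0.02) and in M on against M off (median 0.06), and 3 higher and 5 lower in Z off against M off (median -0.02) and in Z on against M on (median -0.14).

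Of the membrane-bound factors that the site-1 and site-2 proteases also cut, with their partners, 4 were higher and 6 lower of 10 in Z on against Z off (median -0.20), and 7 were higher and 3 lower in M on against M off (median 0.09). Z off against M off also had 7 higher and 3 lower (median 0.22), and Z on against M on 5 of each (median -0.02). Srebf1, a regulator of lipid synthesis, averaged 1254 in Z on and 991 in Z off livers, against 1841 in M on and 1830 in M off livers, and Z off minus M off was -0.88 (limma adjusted p = 0.437). Its relative Srebf2, the cholesterol regulator, averaged 150.4 in Z on and 199 in Z off livers, against 158 in M on and 141 in M off livers. The liver factor Creb3l3 averaged 1258 in Z on and 1379 in Z off livers, against 1465 in M on and 1216 in M off livers, and Atf6b, the paralogue of Atf6, 35.6 in Z on and 42.6 in Z off livers, against 43.1 in M on and 37.7 in M off livers. All 3 overlapped between Z on and Z off. Insig2 and Creb3l2 had the smallest unadjusted p of the list in Z on against Z off, at -0.84 and -0.77 (limma adjusted p = 0.782 and 0.799). Both were also lower in M on than in M off, by -0.60 and -0.84 (limma adjusted p above 0.95). Of the IRE1 partners and substrates of IRE1-dependent decay, 3 were higher and 10 lower of 13 in Z on against Z off (median -0.23). M on against M off, Z off against M off and Z on against M on each had 5 higher and 8 lower (medians -0.07, -0.12 and -0.05). Traf2, an adaptor that IRE1 recruits, averaged 64.1 in Z on and 110 in Z off livers, against 65.5 in M on and 67.4 in M off livers (Z on minus Z off -0.78, limma adjusted p = 0.671). Sparc, a substrate of IRE1-dependent decay and a product of stellate cells, averaged 331 in Z on and 494 in Z off livers, against 449 in M on and 555 in M off livers. Its values lie in the same direction as the stellate marker sum, and a link between them was not tested. Of the translocation and ER-to-Golgi genes of the XBP1 programme, 9 were higher and 13 lower of 22 in Z on against Z off (median -0.13) and in M on against M off (median -0.02). In Z off against M off 18 were higher and 4 lower (median 0.18), and in Z on against M on 14 were higher and 8 lower (median 0.06).

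**Figure D5:**
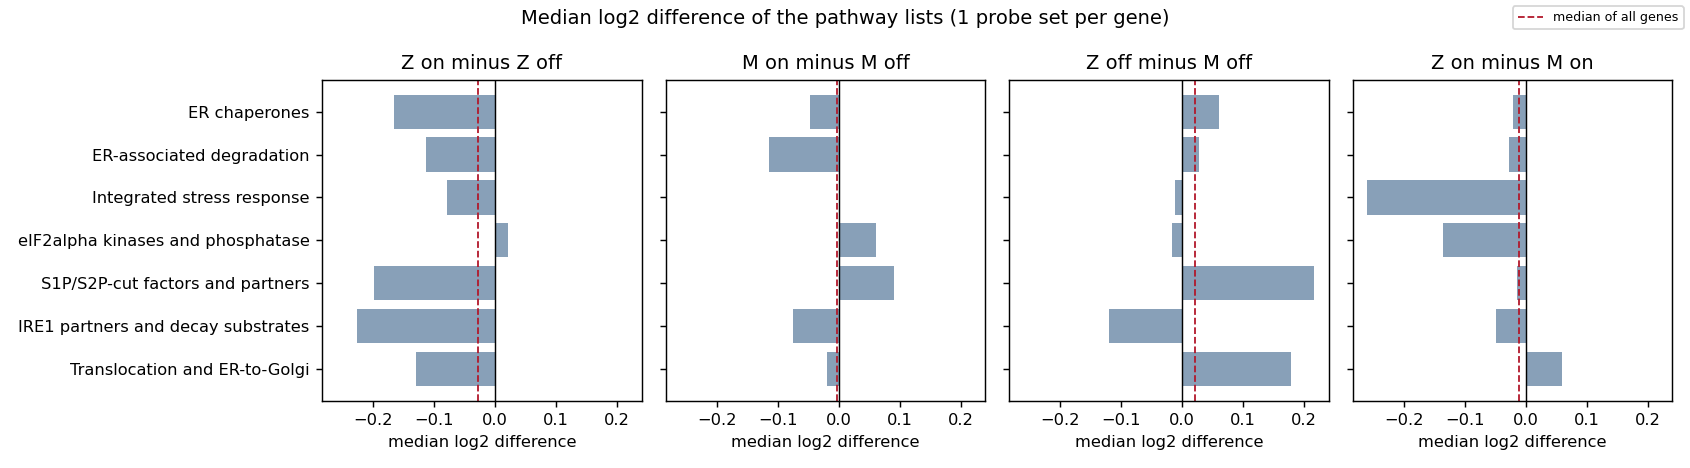
Median log2 difference (horizontal axis) over the measured genes of 7 pathway lists in Z on minus Z off, then M on minus M off, Z off minus M off and Z on minus M on, with the median of all genes as a dashed line (S1P and S2P are the site-1 and site-2 proteases). In Z on minus Z off, 6 of 7 list medians lie below that of all genes (-0.03), down to -0.23.

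The genes whose mean-centred log2 signal ran closest to each member over the 12 arrays were found by root mean square distance among genes whose brightest probe set lay above the median level (7033 other genes, or 7034 for Ern1). Nearest to Creld2 were Entpd6 (0.29), Muc20 (0.33) and Syne1 (0.33), and Manf came at rank 83 with 0.42. Nearest to Manf were Cdk2ap2 (0.16), Tsc22d1 (0.18) and Tfrc (0.20). For Sdf2l1 they were Prg4 (0.35), Fkbp11 (0.35) and Desi2 (0.37), for Dnajc3 Erp44 (0.15), Dlat (0.16) and Zbtb18 (0.17), and for Eif2ak3 Kmt5c (0.14), Ippk (0.18) and Alg2 (0.18). For Atf6 they were 2610507B11Rik (0.12), Smad1 (0.13) and Cast (0.13), for Xbp1 Arf6, Gabpa and Chmp1b, for Mbtps1 Ppme1, Nrbf2 and Shisa5, and for Ern1 Tom1l1, Cbx6 and Ramp3. No member was among the nearest 3 of another. With 7033 or 7034 candidates for each member that outcome is likely for any small set of genes. It does not show whether the members run together.

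Among the 4 effectors, 6 pairs were correlated over the 12 arrays. Creld2 and Manf had Pearson's r = 0.62 (permutation p = 0.0289, Benjamini-Hochberg adjusted 0.173) and Spearman's rho = 0.38 (permutation p = 0.219, adjusted 0.437). The value was 0.62 without the 2 arrays farthest from the median of Creld2 and 0.30 for deviations from the group means. The other 5 pairs had r of 0.0736 to 0.48 and rho of 0.126 to 0.51, and no pair passed after adjustment. For deviations from the group means, r was higher than for Creld2 and Manf in 3 of them, at 0.74 for Dnajc3 and Creld2, 0.54 for Dnajc3 and Sdf2l1 and 0.45 for Creld2 and Sdf2l1, and it was -0.07 for Dnajc3 and Manf and 0.00 for Manf and Sdf2l1. These last values were not tested.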

How the data were processed

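Liver RNA was purified with TRIZOL and a column and labelled with biotin, per the labels' protocols. The authors deposited intensities, with 1 linear signal for each probe set on each array. The submitters' processing notes name RMA, but the deposited intensities are linear, span 0 to 37251.7 and share a 2% trimmed mean of 150.1, with array medians of 38.7 to 47.0, which RMA output does not have. No source used here gives the software or its settings. Detection calls were not used here.

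Signals were converted to log2 (1 value of 0 was set to 0.1). The 64 control probe sets among 22690 were left out, and 22626 were tested. Gene symbols came from the platform annotation (20380 probe sets with 1 symbol, 691 with several and 1555 with none). No further scaling or filter was applied. limma 3.58.1 in R 4.3.3 fitted 1 mean per group over all 12 arrays, 7 contrasts were tested in both directions, Benjamini-Hochberg adjustment ran over all tested probe sets, and an adjusted p under 0.05 was a call. Intervals are 95%. Replicates are labelled biological, and their number limits the precision. The fit was also run on simulated data with known changes. How many of them it recovered is not given here, so that run does not show what size of change would be called.

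The members and lists were chosen with earlier results of these data known. Named were all members, 12 set neighbours of the pathway, some of the list genes among the 2 of smallest unadjusted p in a contrast, and for each member the 3 genes nearest in pattern. Other list genes among those 2 were not named, so the named ones do not stand for their lists. No gene was named from the translocation list or from the list of eIF2alpha kinases, phosphatase subunits and partners. A gene stands in a list by its brightest probe set. Marker lists of pancreatic acinar cells (10 of 12 with a probe set, summed signal 845 to 1022 in Z on and 780 to 1055 in Z off livers, against 777 to 1083 in M on and 776 to 1140 in M off livers, with Cpa1 below 16 on all arrays), of plasma and B cells (7 of 10, 748 to 1203 in Z on and 728 to 934 in Z off livers, against 595 to 1118 in M on and 827 to 978 in M off livers), of cholangiocytes (6 of 7, 67.6 to 82.7 in Z on and 56.5 to 101.6 in Z off livers, against 82.4 to 106.5 in M on and 54.5 to 188.7 in M off livers) and of Kupffer cells (9 of 10, 2005 to 2279 in Z on and 2084 to 2299 in Z off livers, against 1744 to 2411 in M on and 1756 to 2097 in M off livers) overlapped between Z on and Z off. In the acinar list only Cela1 (455.6 to 821.5) exceeded 100 on all arrays, and the next, Prss2, reached at most 102.6. In the plasma and B cell list only Sdc1 did (466.9 to 1038.7), and the next, Ighm, reached at most 100. These 2 overlaps thus rest on 1 bright gene each and do not show the content of those cells. Correlations used 100000 permutations. Replicate numbers were checked for pairing. Of 18 pairs of arrays with the same number, 3 had deviations from the group means correlated over 0.1, and of 36 pairs with other numbers also 3. No clear pairing was seen, and no block was used in the reported fit.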

Additional observations from a re-analysis of the deposited data

How the results depend on the processing

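No member probe set was called under any of the 19 settings tried, which were the 12 arrays left out in turn, quantile normalization, centring on the array median, 16 added to every signal, limma with an intensity trend and robust variances, a filter to probe sets above the median level, only the 2 groups compared, and a replicate block. The smallest adjusted p of a member under any of them was 0.0822 (the third and dim Ern1 probe set, Z off minus M off, without Z off replicate 3). Of 2804 member values under an alternative, 144 changed sign, 0 of them among the 313 from differences with an unadjusted p under 0.05, and 11 moved by over 1 SD. A large part of the 2804 and of the 313 could not change sign. Trend and robust variances, the replicate block and the fit of only the 2 groups leave the log2 difference as in the reported fit. So does leaving out an array of a group outside the comparison. These counts therefore overstate how stable the signs were. Creld2 in Z on minus Z off ranged from -1.31 to -0.92, Manf from -0.95 to -0.52 and Atf6 from 0.43 to 0.58.

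Counts over all probe sets moved more. Z on against Z off gave 3 calls as reported, 1 after centring, with 16 added, above the median level and with the replicate block, 8 with trend and robust variances, 0 with only its 2 groups and 1 to 5 with an array left out. M on against M off gave 0 as reported, 2 with quantile normalization and above the median level, 5 after centring, 3 with 16 added, 8 with trend and 0 to 2 with an array left out. The difference of the responses gave 0 as reported, 1 after centring, with 16 added and above the median level, 2 with trend and 0 to 2 with an array left out. Z on against M on gave 2 as reported, 9 with quantile normalization, 10 with 16 added, 22 with trend, 20 above the median level, 0 with only its 2 groups or the replicate block and 0 to 5 with an array left out. Z off against M off gave 16 as reported, 51 with trend, 33 above the median level, 0 with only its 2 groups, 6 with the replicate block and 1 to 11 with an array left out. On against off gave 2 as reported, 4 with 16 added, 17 with trend, 5 above the median level, 1 with the replicate block and 0 to 5 with an array left out. The Z line against the M line gave 20 as reported, 41 with 16 added, 110 with trend, 87 above the median level, 12 with the replicate block and 7 to 18 with an array left out. Leaving out an array, or fitting only the 2 groups, leaves fewer samples. The replicate block estimates more terms from the same arrays, and the set above the median level tests fewer probe sets. Otherwise the cause was not tested. The replicate block changed no call of a member. The replicate numbers showed no clear pairing of the arrays (same-number correlations -0.0826 to 0.161, median 0.0173, other-number correlations -0.183 to 0.157, median -0.0112).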
